A study of Homo sapiens with 9 samples.

Results

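Titin, encoded by TTN, was the gene described here. Its members were the loci of the deposited list that overlapped the span of TTN in GENCODE release 29 (chromosome 2, 178525989 to 178830802, minus strand, hg38). There were 319 such loci of 108742 in the list, or 0.293%. A locus is a stretch of 1 strand of the genome where small RNA reads piled up. Locus borders lay on a fixed genomic grid of 50 bases, with 11 starts and 0 ends off it in the whole list. Positions, widths and sequences of loci are thus those of grid units and not of read ends. Each member was sorted by strand, by exon or intron, and by its exon along the longest coding transcript, which has 363 exons and 109224 bases. TTN was chosen because it held the most loci of any protein-coding gene, so its number of loci is a description of how it was picked.

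The list carries the name of the TCGA breast cancer cohort and of the peak caller Piranha, and it stands for bulk tissue; how many samples it was built from was not stated in the labels. The series also has 9 libraries of small RNA from cultured MDA-LM2 cells, a breast cancer line derived from MDA-MB-231 that spreads to the lung. By their labels, 2 libraries had a control siRNA, 2 each had siRNA against DCGR8 (spelled so in the labels), DROSHA and TARBP2, and 1 had siRNA against DICER. No knockdown was compared with its control, since values by library were not analysed here. The list has no replicates and no depth. Intervals are exact Clopper-Pearson 95% intervals, which cover counting error only. Exons were read in units of 50 bases for these intervals, and since neighbouring units can share reads, the intervals are too narrow.

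Titin is the giant elastic protein of striated muscle. A single molecule reaches from the Z-disc, where thin filaments are anchored, through the extensible I-band and along the thick filament of the A-band to the M-band at the middle of the sarcomere. Its mRNA is spliced differently in heart and skeletal muscle, mainly in the I-band part. The N2A isoform is that of skeletal muscle, the short N2B isoform is cardiac, and the N2BA isoforms of heart hold both regions. The cardiac isoforms share a large exon that encodes the N2B spring element, which N2A lacks.

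The sequences below come from the GENCODE release 29 transcript and are written 5′ to 3′ on the strand of the mRNA. They show where loci lay next to the largest empty stretch and in the part of the I-band that N2A holds and N2B lacks. They also show loci in repeated exons and at the end of the reading frame. Only the exonic bases of a locus are given. The loci on either side of that stretch lay in exons 44 and 49, and the start of the empty exon 48 between them is shown for comparison.
Locus in exon 44, chr2:178759001-178759150, minus strand: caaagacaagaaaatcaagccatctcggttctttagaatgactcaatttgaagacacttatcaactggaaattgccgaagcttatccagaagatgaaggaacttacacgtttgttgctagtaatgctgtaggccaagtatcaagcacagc
First 50 bases of exon 48, no locus, chr2:178741872-178741921, minus strand: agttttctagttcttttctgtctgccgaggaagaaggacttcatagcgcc
Locus in exon 49, chr2:178738301-178738350, minus strand: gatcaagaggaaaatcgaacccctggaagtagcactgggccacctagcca

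Exons 106 and 108 belong to the part of the I-band that N2A holds and N2B lacks, and each held 1 locus. The annotated N2BA transcripts hold both exons too.
Locus in exon 106, chr2:178704351-178704400, minus strand: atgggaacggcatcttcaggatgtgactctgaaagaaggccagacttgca
Locus in exon 108, chr2:178702201-178702245, minus strand: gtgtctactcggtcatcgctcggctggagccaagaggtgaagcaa

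Exons 192 and 216 held the only 2 loci listed in exons that N2A lacks. The 50 bases under the locus in exon 192 occur 3 times in the transcript with 0 differences, also in exons 183 and 174, where no locus was listed. N2A holds exon 174, so this locus cannot be placed outside N2A by its sequence.
Locus in exon 192, chr2:178654451-178654500, minus strand: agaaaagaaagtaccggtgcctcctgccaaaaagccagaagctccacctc
Same stretch of exon 183, no locus, chr2:178658711-178658760, minus strand: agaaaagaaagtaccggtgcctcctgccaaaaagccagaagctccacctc
Same stretch of exon 174, no locus, chr2:178662972-178663021, minus strand: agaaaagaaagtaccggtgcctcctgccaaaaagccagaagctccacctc
Locus in exon 216, chr2:178646501-178646550, minus strand: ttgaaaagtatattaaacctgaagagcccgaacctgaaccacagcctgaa

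The widest locus spanned 600 bases (178573151 to 178573750) within exon 326 of the A-band, and its first 200 bases are shown. A locus of 250 bases in the last exon ran over the end of the reading frame, and its last coding bases are shown with the stop codon in capitals.
Locus in exon 326, 5′ part, chr2:178573551-178573750, minus strand: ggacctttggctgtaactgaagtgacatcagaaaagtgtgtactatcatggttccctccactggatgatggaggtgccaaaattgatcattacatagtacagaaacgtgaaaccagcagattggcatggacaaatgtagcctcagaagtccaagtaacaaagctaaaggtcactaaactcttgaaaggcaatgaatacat
Locus in exon 363, coding part, chr2:178527012-178527061, minus strand: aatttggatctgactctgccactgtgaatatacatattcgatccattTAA

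Nearly all loci in the span lay on the exons of the mRNA strand. Of the 319 loci, 315 were sense and 4 antisense, and 311 of the sense loci were exonic. The sense share of exonic loci was 99.4% (311 of 313, 97.7 to 99.9), beside 82.1% for all protein-coding genes together. The exonic share of sense loci was 98.7% (311 of 315, 96.8 to 99.7), beside 39.4% over all protein-coding genes. High shares were common to genes with many loci: among the 23 protein-coding genes with 20 or more, the median was 97.0%, and 6 exceeded TTN. The gene was picked on sense exonic loci, so neither share was tested. Introns make up the larger part of the span, with 186 kb against 119 kb of exon over all transcripts. Sense density was 0.0215 loci per kb of intron and 2.85 loci per kb of exon in the longest transcript. The bases of exonic loci lay in exons to 97.0%, and 1 of the 311 loci was exonic over less than 50% of its width.

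The few loci elsewhere were all 50 bases wide. The 4 sense loci outside exons comprised 1 each in the introns after exon 88 (178715851 to 178715900), exon 131 (178684551 to 178684600) and exon 344 (178545051 to 178545100). The remaining one lay upstream of exon 1 (178820201 to 178820250), in the span of a shorter transcript. Of the 4 antisense loci, 1 lay opposite exon 338, 1 opposite exon 339 and 2 opposite introns. TTN-AS1 is an antisense lncRNA gene that runs against most of TTN (178521183 to 178779963, plus strand). Its 20.7 kb of exons held 0 loci, although 5 loci lay on its strand within its span.

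Wide loci were common on titin, as on other genes with many loci. Of the 311 exonic loci, 190 were 50 bases wide, 50 were 100 bases, 37 were 150 bases and the rest were wider, up to 600 bases. Loci of 100 bases or more thus made up 38.9% (121 of 311, 33.5 to 44.6), beside 14.0% of exonic loci over all protein-coding genes. Among the 23 protein-coding genes with 20 or more loci, the median share of such wide loci was 37.8%, and 9 of these genes exceeded TTN.

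Along the spliced mRNA, loci reached from the first exon to the last and left a few long gaps. In windows of 1 kb, the share of bases under sense loci had a median of 25%, a highest value of 65.0% and was 0 in 9 of 110 windows. Over 10 equal pieces of the transcript, it was 34.8% (28.6 to 41.6) in the first, 8.65% (5.33 to 13.3) in the fourth, 35.3% (29 to 42.1) in the eighth and 24.3% (18.8 to 30.6) in the last. The lowest piece was the I-band part between exons 130 and 235. The first locus within the reading frame lay in exon 2. Its border was 42 bases after the first coding base, a distance set by the grid of 50 bases. The uncovered stretches numbered 310 with a median of 185 bases, and the longest, of 3816 bases, ran from exon 44 to exon 49. The second longest, of 3569 bases, ran from exon 151 to exon 192.

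**Figure D1:**
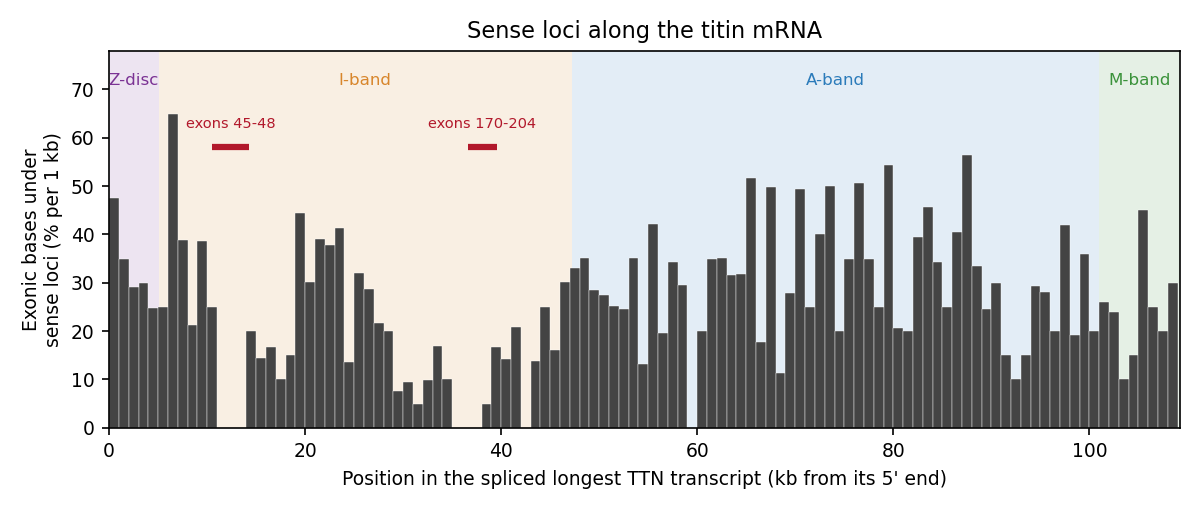
Percent of bases under sense loci in 1 kb windows (bars) along the spliced longest TTN transcript, from its 5′ end, with the 4 sarcomere bands shaded. Red lines mark the empty exons 45 to 48 and the stretch of repeated exons from 170 to 204, where bars are at 0 or low, and the highest bar stands at 65.0%.

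By sarcomere band, with all loci and exons, coverage was highest in the Z-disc and lowest in the I-band, and the lowest band changed with the loci and exons used. The bands were set by exon number, with exons 1 to 27 as Z-disc, the next 224 as I-band, the next 106 as A-band and the last 6 as M-band. The Z-disc part, which anchors titin and binds telethonin, held 22 loci in 5.04 kb and was covered over 33.0% of its bases (23.7 to 42.7). The I-band part, made of elastic domains and the PEVK spring, held 110 loci in 42.2 kb and was covered over 19.0% (16.4 to 21.8). The A-band part, whose repeats bind myosin and myosin-binding protein C, held 158 loci in 53.8 kb and was covered over 30.6% (27.8 to 33.4). The M-band part, which carries the titin kinase, held 21 loci in 8.23 kb and was covered over 23.7% (17.4 to 30.9). Over all protein-coding genes, 0.862% of exonic bases lay under a same-strand locus.

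The order of the I-band and the A-band turned with the width of loci, and their values came close in exons that all long isoforms hold. Wide loci made up 29.1% of I-band loci and 46.2% of A-band loci. With loci of 50 bases alone, the order was reversed, with 8.82% of bases covered in the I-band, 7.63% in the A-band, 7.29% in the M-band and 14.6% in the Z-disc. Counted as loci of 50 bases per kb, the values were 2.98 for the Z-disc, 1.85 for the I-band, 1.58 for the A-band and 1.46 for the M-band. In exons that all long isoforms share, coverage was 31.9% in the Z-disc, 28.1% in the I-band, 30.6% in the A-band and 23.9% in the M-band. The M-band was thus the lowest both there and with loci of 50 bases alone, of which it held 12. No intervals are given for the values in this paragraph and several lie close together, so these orders are descriptions only.

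Few exons held more than 1 locus. Of 363 exons, 203 held a sense locus (55.9%, 50.6 to 61.1), beside 5.31% of the exons of the longest coding transcripts of all protein-coding genes. There were 160 exons with none, 167 with 1 locus, 30 with 2 and 6 with 4 or more. By band, 19 of 27 Z-disc exons, 94 of 224 I-band exons, 84 of 106 A-band exons and 6 of 6 M-band exons held one. By length, exons of up to 100 bases held a locus in 17 of 116 cases (14.7%, 8.78 to 22.4), beside 2.47% of exons of this length in all protein-coding genes. Exons of 101 to 200 bases held one in 32 of 50 cases (64.0%, 49.2 to 77.1), beside 4.16%. Those of 201 to 400 bases did in 135 of 175 cases (77.1%, 70.2 to 83.1), beside 8.0%, and longer ones in 19 of 22 cases (86.4%, 65.1 to 97.1), beside 14.1%.

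The largest exons held the most loci. Exon 326, an A-band exon of 17106 bases that encodes many of the immunoglobulin and fibronectin repeats, held 48 loci and was covered over 35.7% (30.6 to 41.0). Exon 358, the first M-band exon and 5609 bases long, held 15 loci (24.1%, 16.5 to 33.1). Exon 304 of the A-band (2967 bases) held 7 loci, exon 339 (2067 bases) 6, exon 28 at the start of the I-band (1694 bases) 5 and exon 335 (1767 bases) 4. The others among the 10 exons with most loci were exons 4, 7, 25 and 49 with 2 each, taken in exon order from 30 exons tied at 2. Per kb, these first 6 exons held between 2.26 and 2.95 loci, a narrower range than that of their numbers of loci. The 5 longest exons without a locus were exon 48 (2781 bases), exon 357 (594 bases), exon 46 (576 bases), exon 45 (375 bases) and exon 305 (321 bases).

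**Figure D2:**
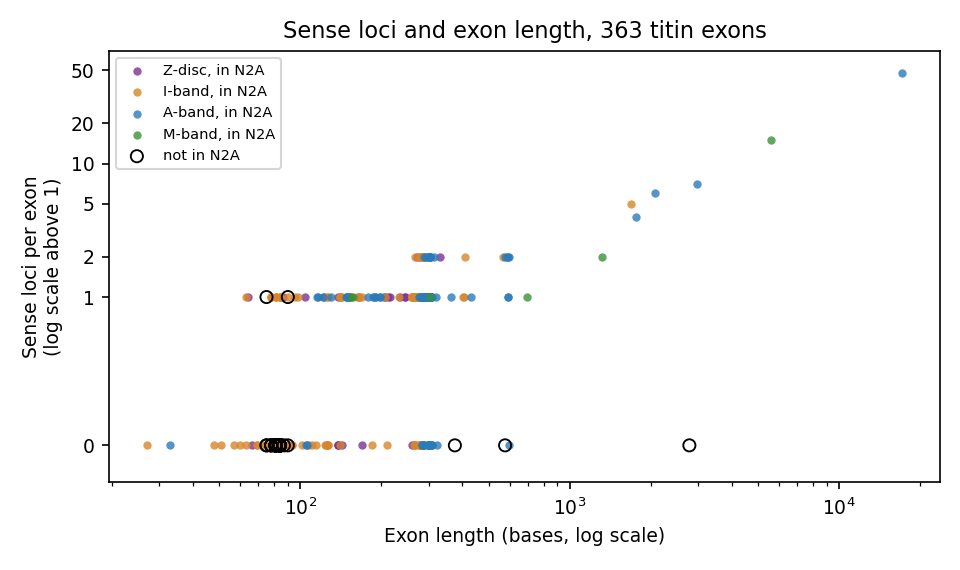
Sense loci per exon (vertical, log scale above 1) against exon length (horizontal, log scale, in bases) for the 363 exons of the longest transcript, coloured by band. Open circles are exons that the N2A transcript lacks. Exon 48, at 2781 bases and 0 loci, stands apart from the other long exons, and exon 326 is at the top with 48 loci.

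Nearly all loci lay in exons of the N2A transcript, which hold 101520 of the 109224 exonic bases. An annotated N2BA transcript was met by as many loci, 309. The split by isoform was set after the values were seen and was not tested. The annotated transcript with the coding length of N2A holds 312 of the 363 exons, and 201 of these had a locus. Of the 51 exons it lacks, 2 had one (3.92%, 0.478 to 13.5), and 48 of these 51 are short, at 75 to 90 bases. N2A exons took 309 of the 311 loci, 3.04 per kb over 102 kb, and the other exons took 2, or 0.26 per kb over 7.70 kb, of which the one in exon 192 has the same sequence as exon 174 of N2A. All 121 loci of 100 bases or more were in N2A exons, and of the 190 narrower loci 188 were. In bulk samples, the number of muscle cells and the titin mRNA per cell cannot be told apart, and the list gives neither.

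The exon that sets N2B apart from N2A, and those of the novex transcripts, held no locus. Exon 48 (178739141 to 178741921), which encodes the N2B spring element, is in every annotated long isoform but N2A. It held 0 loci over 2781 bases, an upper limit of 6.38% of its bases, where the 6 other exons of 1500 bases or more held between 4 and 48 loci. Exon 45 is the extra exon of the novex-1 transcript and exon 46 that of novex-2. Both were empty as well. Exons 45, 46 and 48 together had 0 loci over 3732 bases (upper limit 4.8%). The novex-3 exon, a long alternative end outside the longest transcript (178744405 to 178752039), had 0 loci over 7635 bases (upper limit 2.38%). None of the 3732 bases lies in repeated sequence, and their GC content was 43.1%, against 42.7% to 46.1% in the 4 bands.

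The exons that N2A has and N2B lacks were covered. This group of 122 exons, nearly all in the I-band, held 65 loci, with a locus in 56 exons and 20% of bases covered (16.4 to 24). The 190 exons common to N2A and N2B held 244 loci over 29.7% of bases (27.5 to 32.0). Exons of the first group had a median length of 150 bases, against 282 bases in the other. As whole transcripts, N2A was met by 309 loci (3.04 per kb) and N2B by 244 (2.97 per kb). An annotated N2BA transcript of 104.3 kb, which holds exon 48, was also met by 309 loci (2.96 per kb). It lacks exons 174, 181 and 182 of N2A and holds exons 183, 190 and 191, which N2A lacks, and none of these 6 exons had a locus. These transcripts share most of their exons, so these numbers are not independent of each other, and N2A and this N2BA transcript differed in no exon with a locus.

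**Figure D3:**
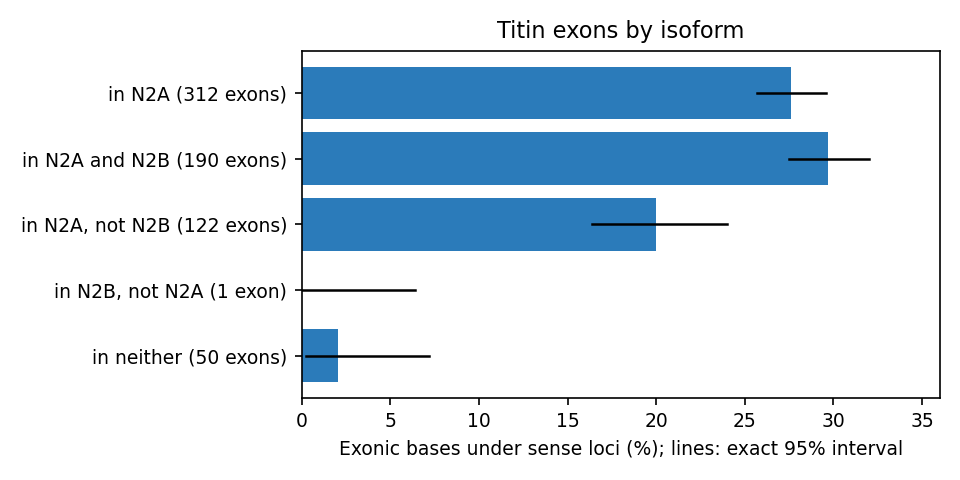
Percent of exonic bases under sense loci (bars) with exact 95% intervals (lines) for exons grouped by their presence in the annotated N2A and N2B transcripts. Exons of N2A stand at 20% to 29.7%, exon 48 as the only exon of N2B that N2A lacks is at 0, and the 50 exons in neither are at 2.03%.

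Short exons with repeated sequence were also mostly empty. The remaining 48 exons that N2A lacks are all of 75 to 90 bases, in the I-band, and 2 of them had a locus (4.17%, 0.509 to 14.3). Exons of up to 100 bases within N2A had one in 15 of 68 cases (22.1%, 12.9 to 33.8). The intervals of these shares overlap slightly. In the same region, 34 exons between exons 170 and 204 consist for more than 50% of bases whose 25-base windows recur elsewhere in the transcript, and 2 of these 34 had a locus. Of the recurring bases 3.4% were covered, against 26.4% of the unique ones, which include nearly all bases of the longer exons. Within exons of up to 100 bases, those without repeats were covered over 14.7% (8.21 to 23.3) in N2A and 3.06% (0.0767 to 15.8) outside it, and those with repeats over 9.8% (0.253 to 44.5) and 2.14% (0.0539 to 11.3). How reads with several matches were placed was not stated in the labels. Without repeated exons, short exons outside N2A had a locus in 1 of 20 cases and those within N2A in 14 of 62. Of the 25-base windows of the transcript, 0 were found in transcripts of other genes, with TTN-AS1 left out of the search.

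Coverage by loci was lower near exon edges. Bases within the outermost 10 of an exon were covered to 11.1% (6.44 to 17.3), those 10 to 24 bases from the edge to 17.4% (12.7 to 23.2) and those 25 to 49 bases away to 25.2% (20.5 to 30.4). Coverage was 30.9% (26.5 to 35.4) at 50 to 99 bases and 27.4% (24.8 to 30.2) further in. The distances do not draw on the same exons. Exons of up to 100 bases, covered over 9.23%, have no base 50 or more from an edge. How reads across junctions were aligned for the list was not stated in the labels. Loci come in steps of 50 bases on a fixed grid, so the classes nearest the edge are finer than the loci. The part of short exons in the low edge values, and of edges in the low values of short exons, was not tested. The part of the grid in both was not tested either. GC content differed little, with 45.2% in covered and 43.7% in uncovered bases.

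**Figure D4:**
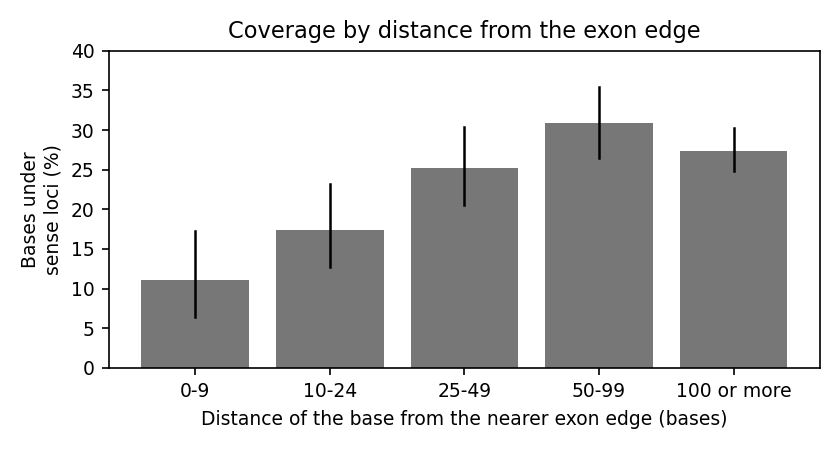
Percent of exonic bases under sense loci (bars, with exact 95% intervals as lines) by distance in bases from the nearer edge of their exon. Coverage rises from 11.1% at the edge to 30.9% at 50 to 99 bases.

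Genes whose proteins bind or regulate titin were mostly present. Of 35 such genes, 24 had a sense exonic locus (68.6%, 50.7 to 83.1), beside 35.7% of all protein-coding genes, with a median of 1 locus per gene. The list was not matched on length or expression. In the Z-disc group, 7 of 9 had a locus, among them NEB (65 loci), the nebulin ruler of the thin filament, ACTN2 (10), the muscle alpha-actinin, and TCAP (4), which encodes telethonin. MYPN and MYOZ2 had none. In the I-band group, 5 of 9 had one, with FHL1 at 9 loci, the chaperone gene CRYAB at 3 and ANKRD23 and CAPN3 at 1 each. ANKRD1 and ANKRD2, whose proteins are stretch-responsive, FHL2, and RBM20, the splicing factor that removes titin exons in heart, had none.

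Of the 4 groups, the thick filament genes had the highest density, 1.92 loci per kb of exon, against 1.02 in the Z-disc, 0.395 in the I-band and 0.204 in the M-band group. In the A-band group, 6 of 7 had a locus. MYH7 of slow fibres and heart ventricles had 29 and MYH2 of fast fibres 21. MYBPC1 of skeletal muscle had 14 and MYH6 of the atria 7. The cardiac gene MYBPC3 had none. Myosin heavy chain genes are close in sequence, so reads of MYH7 and MYH6, and of MYH1 and MYH2, may not be separable. In the M-band group, 6 of 11 had one, with 6 loci on SQSTM1, which encodes an autophagy receptor expressed in most tissues, 3 on MYOM1, 2 on MYOM2 and 1 on OBSL1. FHL2, MYOM3, NBR1 and TRIM54 were among those without.

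The 7 genes listed here for skeletal muscle all had a locus. The lists below are read beside 35.7% of all protein-coding genes with a locus and 0.147 loci per kb over their exons. These marker lists were chosen with earlier results of these data known, so their counts are descriptions. MYH7, which had 29 loci, is in none of them. All 7 of ACTA1, CKM, MB, MYH1, MYH2, MYLPF and TNNT3 had a locus, with 3 to 21 each and 2.46 loci per kb of exon. Of the 35 partner genes above, 24 had one, and ANKRD2, MYOM3 and TRIM54 were among those without. Whether each listed gene is made in 1 tissue only was not tested, so the lists cannot by themselves tell skeletal muscle from heart. Of 5 genes listed for heart, MYH6 had 7 loci, while NPPA, MYL7, TNNT2 and TNNI3 had none, which gave 0.381 per kb. Of 4 genes listed for smooth muscle, ACTA2 had 6, MYH11 had 1 and CNN1 none, and DES, whose desmin is also made in skeletal and heart muscle, had 6. The 5 genes of breast epithelium, KRT8, KRT18, KRT19, ESR1 and ERBB2, had 3 to 18 loci each, or 1.28 per kb. The 4 fibroblast genes COL1A1, COL1A2, COL3A1 and FN1 had 28 to 48, or 3.13 per kb. The list holds no value per tumour, so the part of muscle tissue in the samples was not tested.

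Among other long genes, only that of nebulin had a density near that of titin. Among the 10 protein-coding genes with the longest coding sequence, TTN (311 loci, 2.61 per kb of all annotated exons) and NEB (65 loci, 2.13 per kb) stood above the rest. The next was MUC16, a surface mucin gene, with 15 loci (0.342 per kb). MACF1, a cytoskeletal linker gene, had 6 (0.147 per kb). SYNE2 had 3, SYNE1 and DST 1 each, and CCDC168 and FSIP2 none. Per kb, TTN ranked 14th of the 23 genes with 20 or more loci, whose densities ran from 1.16 to 4.76 with a median of 2.77. The 5 such genes nearest in density were MYH9 (2.55 per kb), DSP (2.68), COL1A2 (2.51), FN1 (2.77) and EGFR (2.96), at differences of 0.06 to 0.35 loci per kb over the 1 list. NEB had an exonic share of sense loci of 97.0%, the median of those 23 genes, with 27.7% wide loci and 15.3% of exonic bases covered, against 38.9% and 23.6% for TTN over all annotated exons.

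**Figure D5:**
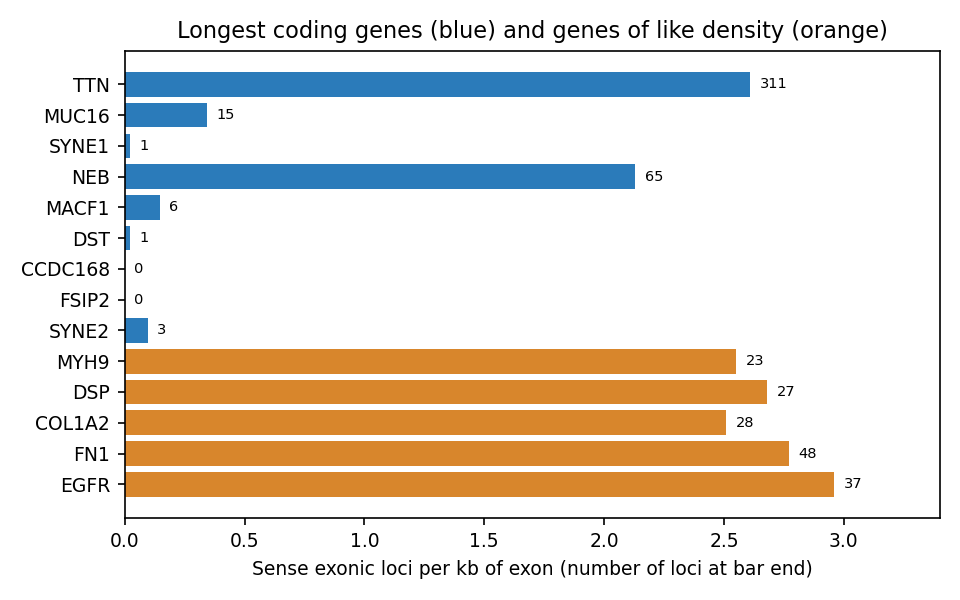
Sense exonic loci per kb of annotated exon (bars), with the number of loci at the bar end, for 9 of the 10 genes with the longest coding sequence (blue) and the 5 genes with 20 or more loci nearest to TTN in density (orange). TTN, at 2.61 per kb with 311 loci, and NEB stand above the other long genes, none of which passes 0.342 per kb.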

How the data were processed

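The 1 file used was a list of loci deposited with the series. Its name ties it to the TCGA breast cancer cohort and Piranha, collapsed, and to no library of the series. The score deposited by the authors is 1 in every row, so only positions and strands were used, converted to a count from 1. The submitters' processing notes name hg38, cutadapt, Bowtie2 2.2.8, SAMtools and bedtools. For the Piranha threshold, the number of samples and the depth, the labels give no value. None of the 9 libraries has a column, so no knockdown was tested.

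GENCODE release 29 (GRCh38) gave the exons, and 1 shared base on the gene's strand made a locus a sense exonic one. A locus on several exons went to the one with most bases. An isoform was taken to hold an exon with at least 90% of its bases. Long isoforms had at least 20000 codons, and an exon was shared where all its bases were exonic in each. Coverage intervals used covered and total bases divided by 50. Sequences and windows of 25 bases came from the GENCODE transcripts. Exons named were the 10 with most loci, the 5 longest and the 5 longest empty ones, partners the 4 per band with most loci and up to 4 without. The members, lists and rules were chosen with earlier results of these data known. The values of 1 gene that this rule names are not reported here. Counting was checked on simulated loci. Alternatives were an overlap of 50% of the locus, loci of 18 to 50 bases, strand ignored, merging, all transcripts, moved band borders, shared exons, unique bases and, chosen after seeing the data, N2A exons only. Python 3.11.15, numpy 2.4.6, scipy 1.17.1, pandas 2.3.3 and matplotlib 3.10.9 were used.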

Additional observations from a re-analysis of the deposited data

How the results depend on the processing

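No paired analysis was possible because no column of the list belongs to a library. Of 57 values recomputed over 12 alternatives, 48 stayed within their interval or, for counts, within 1.5 times, and 9 moved. With loci of 18 to 50 bases alone, sense exonic loci numbered 190. Exons with such a locus fell from 203 to 136, which was close to the limit of 1.5 times but counted as unmoved. Coverage was then 14.6% in the Z-disc, 8.82% in the I-band, 7.63% in the A-band and 7.29% in the M-band. It was 8.61% in exons shared by all long isoforms against 7.83% in the other exons (29.7% and 16% with all loci). Those other exons include exons 1, 2 and 363 at the untranslated ends, since some long transcripts lack all or part of their bases. This alternative drops wide loci, so lower coverage follows from its construction. Wide loci made up 29.1% of I-band loci and 46.2% of A-band loci, so the A-band lost a larger share of its loci. Why the widths differed between the bands was not tested. In the I-band, coverage rose from 19.0% to 28.1% with exons that all long isoforms share and to 23% with N2A exons only. An overlap of 50%, strand ignored, merging, all transcripts, moved borders and unique bases moved none of the values computed under them. Several of these could change little. Against 311 exonic loci in the main setting, there were 310 with an overlap of 50% and 313 with strand ignored. Merging and all transcripts both left 311. Values that stayed under these last settings thus say little about stability. Depth is unknown, so a stretch without a locus is one where none was called, not one without RNA.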
